A study of Mus musculus with 6 samples.

Results

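The nuclear genes for the subunits of the mitochondrial respiratory chain and ATP synthase were followed in liver RNA from 3 wild-type (WT) and 3 Arid2 LKO libraries. They were chosen as the protein-coding genes of the GENCODE vM21 annotation whose symbols begin as the subunit families do (Nduf with a letter A, B, C, S or V and a digit; Sdha to Sdhd; Uqcr; Cox4 to Cox8; Atp5) and whose mean over the 6 libraries was at least 0.5 FPKM. Of 85 such protein-coding genes, 78 reached this level, among 11672 genes of any kind that did and 54532 gene identifiers in all. They comprised 35 genes of complex I, 4 of complex II, 8 of complex III, 14 of complex IV and 17 of complex V, the ATP synthase. Complex IV includes Ndufa4, a cytochrome c oxidase subunit first assigned to complex I, its relative Ndufa4l2, and the supercomplex factor Cox7a2l; the complex V count includes Atp5s, a coupling factor and no subunit of the core enzyme. The name rule misses the subunit genes Cyc1, Ndufab1 and Usmg5.

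The study compared WT mice with mice whose Arid2 gene is knocked out in the liver alone by the genotype label (Arid2 LKO), all untreated, and its title places the comparison in hepatic steatosis and JAK2 ubiquitination. ARID2 belongs to PBAF, a chromatin remodeller of the SWI/SNF family. The sources used here give neither the promoter that drives the deletion nor strain, age or sex, nor whether each library came from its own animal, so a p-value here weighs a difference against the spread of these samples, which may be technical. Levels are FPKM, read counts relative to the merged exon length of the gene and to the depth of the library, and rested on 13947787 to 18159285 reads per library. Values are listed in the order of replicates 1, 2 and 3 throughout. Summed over the whole gene, Arid2 was at 2.65, 1.74 and 1.79 FPKM in WT and at 2.55, 1.33 and 2.04 FPKM in LKO, so it left the labels unchecked, and LKO below means the libraries so labelled. Markers of hepatocytes were abundant in every library (7 markers, summed to between 45005 and 58887 FPKM in WT and between 48669 and 64627 FPKM in LKO).

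Complex I oxidizes NADH and complex II succinate; both pass electrons to ubiquinone, from which complex III passes them to cytochrome c and complex IV to oxygen. Complexes I, III and IV pump protons, and complex V uses the gradient to make ATP. Most subunits are encoded in the nucleus, and the remaining core subunits of complexes I, III, IV and V in mitochondrial DNA, so each of these complexes needs the output of both genomes. In hepatocytes the chain also takes up the electrons released by fatty acid oxidation.

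No subunit transcript differed between the genotypes at the threshold used. Of the 78 members 0 rose and 0 fell (limma-trend on log2(FPKM + 1), adjusted p under 0.05 over all 11672 genes; also 0 in each alternative run, among them without both libraries numbered 1), where 0.0428% of all tested genes were called in either direction. At an unadjusted p under 0.05, 0 members were higher in LKO, against 4.28% of all tested genes, and 1 was lower, against 4.93%. The 2 groups did not overlap, in either direction, in 2 of 78 members, against 15.4% of all tested genes; in both, Ndufa4l2 and Ndufa6, every LKO library lay below every WT library. Such members numbered 9 of 78 when the libraries were scaled to equal sums of nuclear protein-coding FPKM, against 13.5% of all tested genes on that scale, and 8 of 78 after quantile normalization, against 15.6%. Log2 differences (LKO minus WT, here and below on the log2(FPKM + 1) scale) ran from -0.93 to 0.74, with a median of 0.06 against 0.03 for all tested genes. They were above 0 in 50 members and below 0 in 28. In bulk liver RNA such as this, fewer cells of a type and less RNA per cell cannot be told apart.

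These differences were not known tightly. The median standard error of the members was 0.39, and the 95% interval stayed within 2-fold in both directions for 28 of 78 members, against 50.2% of all tested genes. For the remaining members a 2-fold difference in at least 1 direction lay inside the interval. The sign of the members' median was not stable: it was -0.05 on the scale to equal sums, -0.05 after quantile normalization and -0.23 without both libraries numbered 1, and with 1 library left out it ran from -0.13 (without WT replicate 1) to 0.21 (without WT replicate 3, and without LKO replicate 3). On the scale to equal sums 35 members were above 0 and 43 below.

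**Figure D1:**
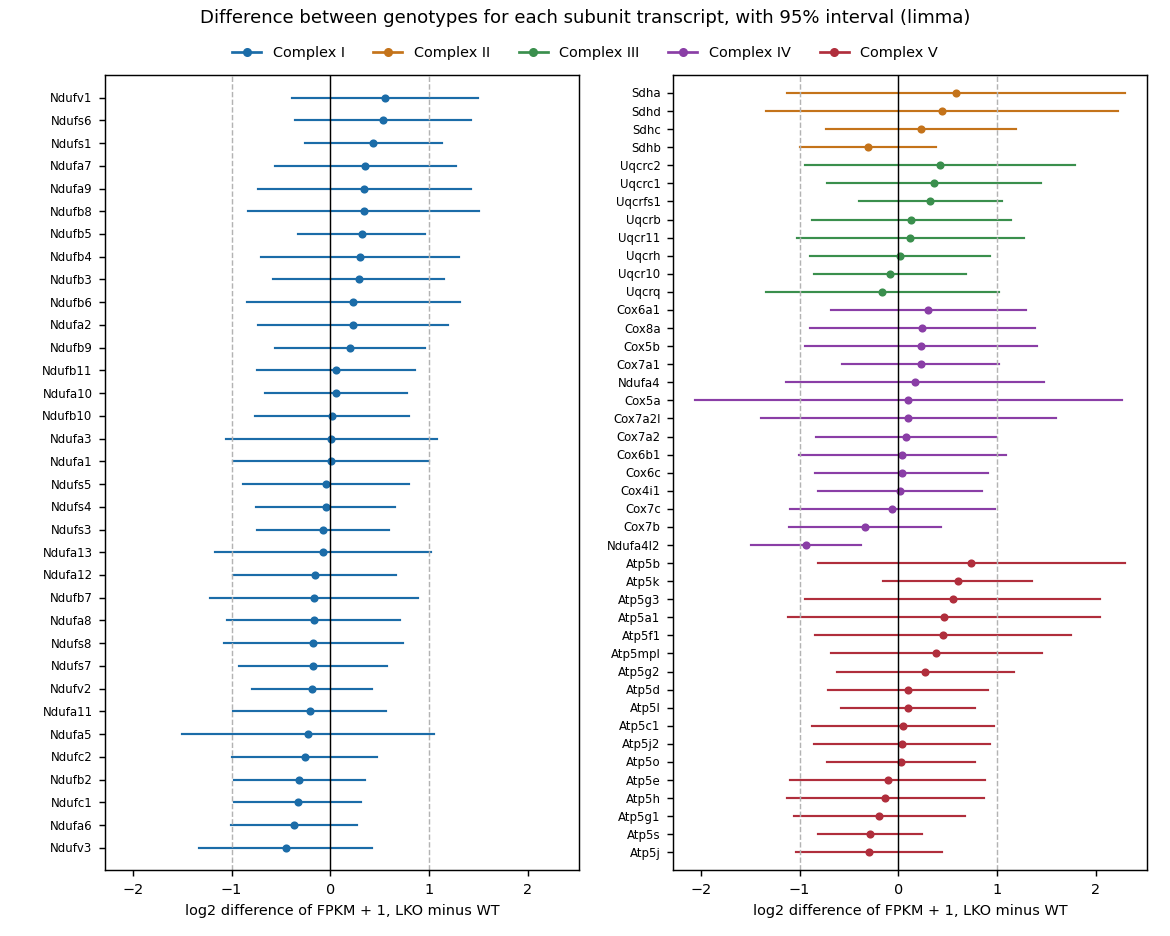
Log2 difference between LKO and WT on the log2(FPKM + 1) scale for 77 of the 78 subunit transcripts (points), with its 95% interval from limma (bars), by complex; the dashed lines mark a 2-fold difference. Apart from that of Ndufa4l2, whose adjusted p is 0.294, every interval includes 0.

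Libraries of the same genotype differed far more than the genotypes did. Of the variance of the members' log2 levels over the 6 libraries, 9.42% lay between the genotype means, against 27.6% for all tested genes. The summed level of all members was 5666, 8335 and 9466 FPKM in WT and 9278, 9449 and 6812 FPKM in LKO. WT replicate 1 was thus the lowest of its group and LKO replicate 3 of the other, and the groups overlapped (7822 ± 1951 against 8513 ± 1476 FPKM, mean ± SD, n = 3 each). WT replicate 1 was the lowest of the 6 libraries for 38 of 78 members and LKO replicate 3 for 30. Over all 11672 tested genes these counts were 2694 and 2319. They were 32 and 31 for 77 tested genes of the cytosolic ribosome, and 34 and 23 for 77 of the mitochondrial ribosome. The summed levels and these counts, and the sums by complex below, are on the deposited scale, on which the libraries also differed in total. All nuclear protein-coding genes summed to 284181, 364574 and 368998 FPKM in WT and to 343333, 412763 and 338360 FPKM in LKO.

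The complexes did not share 1 order of libraries. Summed complex I transcripts were at 1985, 2391 and 2967 FPKM in WT and at 3050, 2705 and 1871 FPKM in LKO, lowest in LKO replicate 3. Complex II ran the other way within LKO, at 196, 407 and 315 FPKM in WT and 201, 400.5 and 461 FPKM in LKO, lowest in both libraries numbered 1 and highest in LKO replicate 3. Complex III, at 943, 1302 and 1593 FPKM in WT and 1713, 1454 and 1004 FPKM in LKO, was ordered as complex I was within each genotype. Complex IV was at 1637, 2537 and 3041 FPKM in WT and at 2909, 3021 and 1925 FPKM in LKO. Complex V was at 906, 1698 and 1550.0 FPKM in WT and at 1406, 1869 and 1551 FPKM in LKO. In each complex the 2 groups overlapped.

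**Figure D2:**
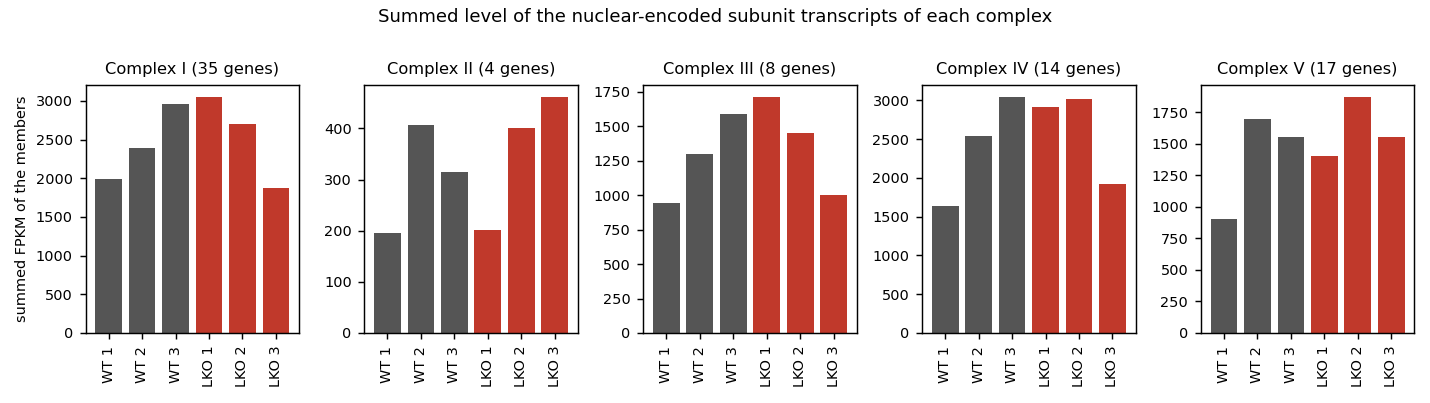
Summed FPKM of the members of each complex in each of the 6 libraries (grey, WT; red, LKO). Within LKO, complex I is highest in replicate 1 (3050 FPKM) and lowest in replicate 3 (1871 FPKM), whereas complex II is lowest in replicate 1 (201 FPKM) and highest in replicate 3 (461 FPKM).

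Behind these sums stood a pair of patterns that differ in the place of LKO replicate 1, both noticed in the data and described without a test. In 22 of 78 members, among them Sdha, Sdhd, Cox5a, Uqcrc1, Uqcrc2, Atp5a1 and Atp5b, both libraries numbered 1 lay below the other 4, as in 20.5% of 10018 other nuclear protein-coding genes tested. In 20 of 78 members, among them Ndufa5, Uqcrq, Cox5b, Cox6b1 and Atp5h, LKO replicate 1 was the highest and LKO replicate 3 the lowest of the 6 libraries, an order found in 9.04% of those other genes. The first pattern with LKO replicate 3 also highest was found in 6 of 78 members (7.69%), against 11.3% of those other genes. Taken singly, LKO replicate 1 was the highest of the 6 libraries in 25 of 78 members and LKO replicate 3 the lowest in 30. For 77 tested genes of the cytosolic ribosome these counts were 24 and 31, so these places were not particular to the members. For 77 of the mitochondrial ribosome they were 11 and 23. The first principal component of the members' levels held 61.4% of their variance and set WT replicate 1 (-0.56) and LKO replicate 1 (-0.51) apart from the other 4 libraries (-0.05 to 0.46). The second held 31.1% and set WT replicate 1 (-0.61) and LKO replicate 3 (-0.49) apart from the rest (0.04 to 0.41).

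**Figure D3:**
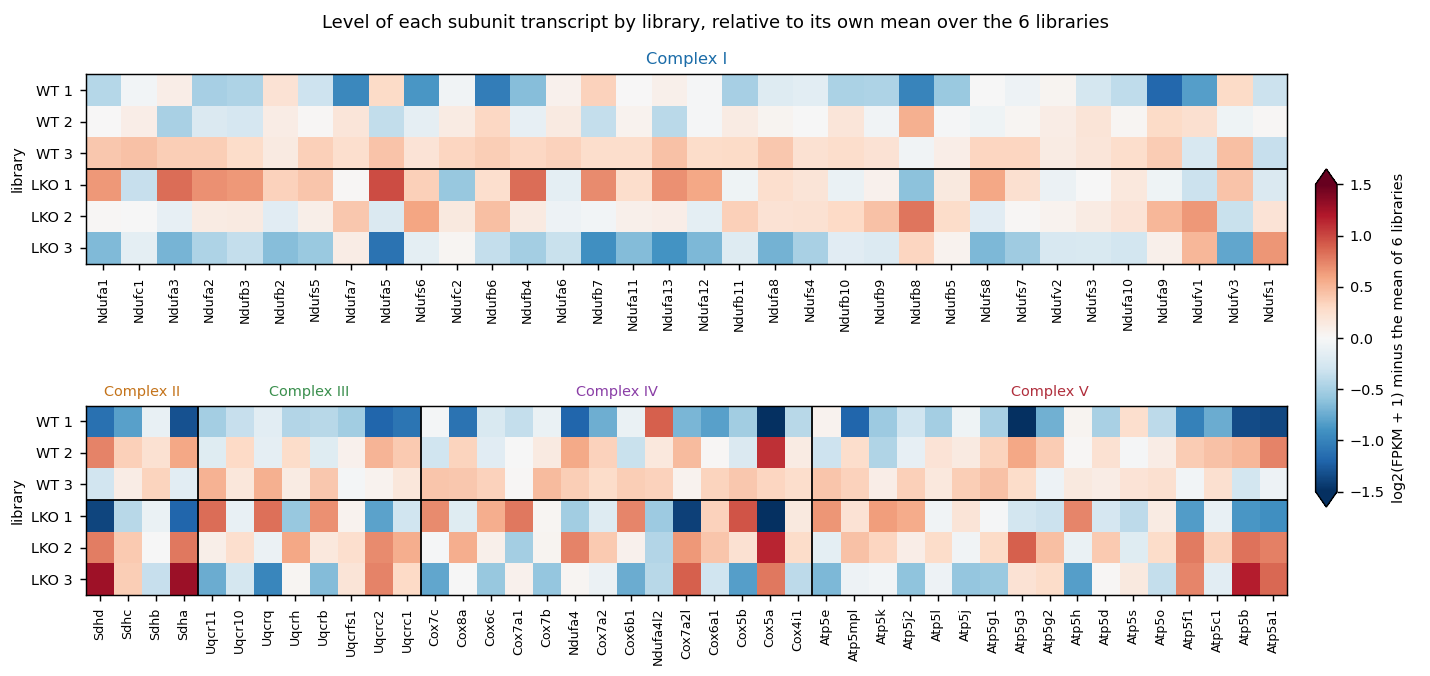
Level of 77 of the 78 members in each library as log2(FPKM + 1) minus the member's mean over the 6 libraries; members are ordered by complex and, within a complex, from the shortest to the longest coding sequence. Blue cells in the rows WT 1 and LKO 1 mark members such as Sdhd, Sdha and Cox5a, and the red row LKO 1 over the blue row LKO 3 marks many short subunits of complexes I, III and IV.

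Short and long subunits differed in this respect. The log2 level in LKO replicate 1 minus that in LKO replicate 3 had a median of 0.70 over the 48 members with a coding sequence under 500 bases and of -0.82 over the 11 members with at least 1000 bases. The same medians were 0.08 and -0.08 over the 930 and 6635 other nuclear protein-coding genes of those lengths. Across genes, Spearman's rho between this difference and coding length was -0.44 over the 78 members, 0.05 over the 10018 other genes, and -0.26 over the 1501 others with a mean of at least 20 FPKM. For the length of the whole mRNA it was -0.35, -0.08 and -0.32 over the same sets. For the untranslated length after the coding sequence it was -0.29, -0.19 and -0.27. A relation to length was thus not particular to the members but also present in other abundant genes. Genes share the same libraries and are not independent replicates, so these values are descriptions of the 2 libraries. Of the 48 short genes 35 were higher in LKO replicate 1 and 13 lower, the lowest being Sdhd, Cox5a and Cox7a2l at -2.64, -2.58 and -2.29.

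**Figure D4:**
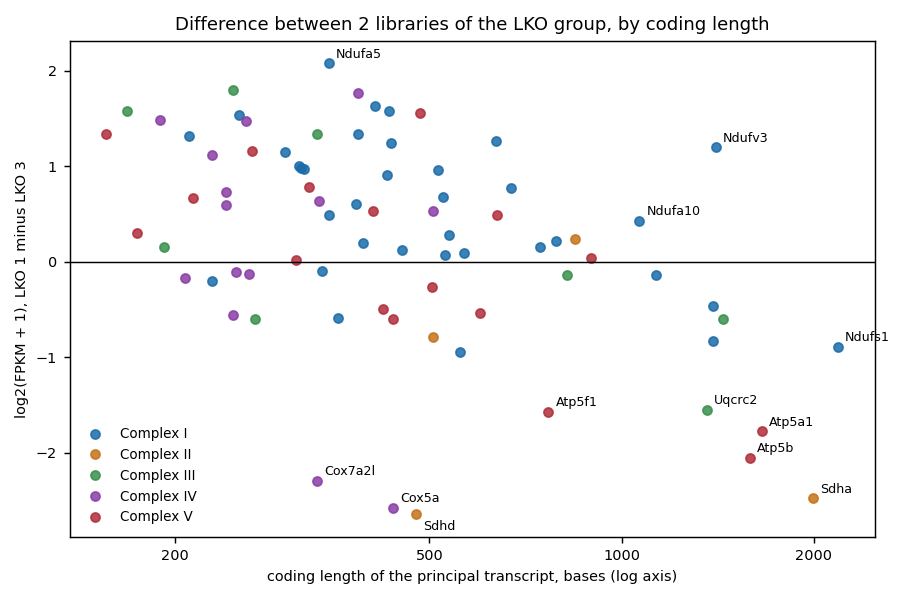
Log2(FPKM + 1) in LKO replicate 1 minus that in LKO replicate 3 for each of the 78 members, against the coding length of its principal transcript (log axis), coloured by complex. Sdha and Atp5b, with long coding sequences, lie at -2.48 and -2.05, and Ndufa5, with a short one, at 2.08.

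Transcripts from mitochondrial DNA also differed between libraries, but not in the order of the members as a whole. The median centred log2 level of the mitochondrially encoded subunits was 0.29, -0.34 and 0.68 in WT and 1.30, -0.56 and -1.56 in LKO. That of the members was -0.45, 0.11 and 0.27 in WT and 0.06, 0.23 and -0.25 in LKO. Mitochondrial DNA gave 20.7%, 10.2% and 18.5% of reads in WT and 27.6%, 7.72% and 4.76% in LKO. All 13 mitochondrially encoded subunit genes were higher in LKO replicate 1 than in LKO replicate 3, by a median of 2.81 on the log2 scale. In all 13, LKO replicate 1 was the highest and LKO replicate 3 the lowest of the 6 libraries, the order described above for 20 of 78 members. For example mt-Nd5, a proton-pumping subunit of complex I, was at 5860, 3801 and 7764 FPKM in WT and at 9842, 3060 and 1624 FPKM in LKO. None of the 13 was called between the genotypes. The sign of their median log2 difference, -0.51, rested on LKO replicate 3: leaving it out gave 0.12, with 11 of 13 above 0. The size also varied with the library left out. It was -1.32 without LKO replicate 1, -0.87 without WT replicate 2 and -0.43 without WT replicate 1. Without WT replicate 3 it was -0.31 and without LKO replicate 2 -0.28. The smallest p of the 13 belonged to mt-Atp8, a subunit of complex V, at 25.7, 27.9 and 53.4 FPKM in WT and 73.3, 11.6 and 10.8 FPKM in LKO. The libraries numbered 1 also had fewer genes with 1 to 5 reads (2003 in WT and 2368 in LKO) than the other 4 libraries (3913 to 4263). The part of these library differences in the subunit values was not tested.

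Complex I subunits had a median log2 difference of 0.01, with 18 of 35 above 0 and 17 below; with equal sums the median was -0.10, with 13 above and 22 below. The 16 genes of the arm that reaches into the matrix and takes up NADH had a median of -0.06, and the 19 genes of the membrane arm one of 0.01. The flavoprotein subunit that binds NADH, Ndufv1, was at 27.3, 57.8 and 41.2 FPKM in WT and at 38.9, 77.2 and 69.7 FPKM in LKO (0.55 ± 0.40 SE, limma adjusted p = 0.766). Ndufs1, the largest iron-sulphur subunit, was at 6.61, 8.64 and 6.52 FPKM in WT and at 7.19, 9.97 and 14.1 FPKM in LKO (0.43 ± 0.30 SE, limma adjusted p = 0.740). In both genes the groups overlapped. Ndufs6, an accessory subunit that binds zinc, was at 36.4, 61.4 and 78.0 FPKM in WT and at 86.5, 102 and 61.1 FPKM in LKO (0.53 ± 0.38 SE, limma adjusted p = 0.755).

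The most abundant complex I transcript was that of the accessory subunit Ndufa2, at 150.2, 182 and 274 FPKM in WT and 341, 231 and 154 FPKM in LKO (0.23 ± 0.41 SE, limma adjusted p = 0.923). Its highest and lowest LKO values enclosed those of WT replicates 2 and 3. Ndufa6, an accessory subunit of the LYR family (ENSMUSG00000022450, chromosome 15, 82350140 to 82354322, minus strand, mm10), is named because its groups did not overlap. It was at 91.7, 96.7 and 112 FPKM in WT and at 79.5, 83.3 and 69.4 FPKM in LKO, all 3 below WT. The difference was small and did not pass (-0.37 ± 0.27 SE, 95% interval -1.004 to 0.27, limma adjusted p = 0.767). Ndufa5, an accessory subunit of the matrix arm (chromosome 6, 24518666 to 24528013, minus strand) named for its spread, was at 113, 71.2 and 125 FPKM in WT and at 183, 79.8 and 42.5 FPKM in LKO. Here 2 LKO libraries differed 4.30-fold while the group means, 103 and 102 FPKM, lay close together.

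The 4 subunits of complex II, which are all encoded in the nucleus, did not all vary together. Sdha, the flavoprotein that oxidizes succinate (ENSMUSG00000021577, chromosome 13, 74322254 to 74350280, minus strand), was at 20.1, 76.8 and 45.5 FPKM in WT and at 21.7, 88.8 and 125 FPKM in LKO. Sdhd, a membrane anchor (ENSMUSG00000000171, chromosome 9, 50596357 to 50603812, minus strand), was at 33.1, 123 and 59.4 FPKM in WT and at 27.6, 125 and 177 FPKM in LKO. In both genes the libraries numbered 1 were lowest in each genotype and LKO replicate 3 was the highest of all. Sdhb, the iron-sulphur subunit between them in the electron path, was at 116, 147 and 159 FPKM in WT and at 117, 125 and 98.7 FPKM in LKO, with LKO replicate 3 lowest. Its libraries spanned 1.61-fold, against 6.25-fold for Sdha and 6.42-fold for Sdhd. The other anchor, Sdhc, was at 25.9, 59.8 and 50.4 FPKM in WT and at 34.6, 61.4 and 60.2 FPKM in LKO. As in Sdha and Sdhd, both libraries numbered 1 lay below the other 4. By limma the differences were 0.59 ± 0.73 for Sdha, 0.44 ± 0.76 for Sdhd, 0.23 ± 0.41 for Sdhc and -0.30 ± 0.29 for Sdhb (SE), with adjusted p between 0.825 and 0.921. Without LKO replicate 1 they were 1.33 for Sdha and 1.24 for Sdhd, and without LKO replicate 3 0.09 and -0.08.

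Promoters were searched for short words that members with opposite library orders share. RefSeq promoters (GRCm38.p6, the same assembly as mm10; 250 bases before to 50 after the start) were matched to 59 of 78 members within 500 bases of the annotated start. Those not matched include Ndufa13, Ndufa2, Ndufb9, Ndufs1, Ndufs5, Sdhc, Uqcrb, Uqcrc2, Uqcrq, Cox4i1, Cox6c, Ndufa4l2, Atp5a1, Atp5d, Atp5f1, Atp5j2, Atp5mpl and Atp5s. The words searched on both strands belong to factors known for genes of mitochondrial proteins: the core word GCGCATGC of NRF1, CCGGAAG of the ETS family, to which GABP belongs, AAGATGGC of YY1 and TCAAGGTCA of ERR. The NRF1 word was in 10 of 59 members' promoters (16.9%), against 5.89% of 7612 promoters of other tested protein-coding genes and 2.71% of all 32851 promoters. The ETS word was in 15 (25.4%, against 20.4% and 8.86%), the YY1 word in 7 (11.9%, against 5.29% and 2.75%) and the ERR word in 2 (3.39%, against 0.276% and 0.423%). In 31 members none of the 4 words was found, and 6 had at least 2.

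The 120 bases before the start are shown for 4 members with such words in them, in capitals, for the order of their libraries. Sdhd and Atp5h both carry the ETS word, read on the opposite strand, and were picked for their opposite order: their difference between LKO replicates 1 and 3 was -2.64 and 1.56. Sdhd also carries the ERR word, past its start and so outside the stretch shown. Ndufa11 carries 2 overlapping NRF1 words, 1 on each strand (0.91), and Atp5g3 an ERR word on the opposite strand (-0.49). The sequences lie at chr9:50603850-50603969, chr11:115419920-115420039 and chr2:73911327-73911446, all on the minus strand, and at chr17:56717642-56717761 on the plus strand for Ndufa11.
Sdhd: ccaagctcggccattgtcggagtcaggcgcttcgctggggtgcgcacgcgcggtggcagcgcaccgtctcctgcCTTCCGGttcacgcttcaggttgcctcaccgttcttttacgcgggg
Atp5h: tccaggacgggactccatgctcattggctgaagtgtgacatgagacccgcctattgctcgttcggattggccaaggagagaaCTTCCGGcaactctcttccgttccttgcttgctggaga
Atp5g3: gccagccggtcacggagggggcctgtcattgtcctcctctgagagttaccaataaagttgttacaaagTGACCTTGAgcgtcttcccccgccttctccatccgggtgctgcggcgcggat
Ndufa11: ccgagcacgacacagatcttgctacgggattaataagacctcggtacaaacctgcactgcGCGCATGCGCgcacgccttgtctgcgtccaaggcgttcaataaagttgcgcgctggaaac
Of the 59 members with a matched promoter, 40 were higher in LKO replicate 1 than in LKO replicate 3 and 19 lower. Among those with the ETS word 12 were higher and 3 lower, with the NRF1 word 8 and 2, and with the YY1 word 4 and 3. The 2 members with the ERR word, Sdhd and Atp5g3, were both lower, and in both the libraries numbered 1 lay below the other 4, as in 17 of the 59. These are counts of letters; no binding was measured.

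Complex III had 6 members above 0 and 2 below, with a median of 0.13, but 3 above and 5 below after quantile normalization and 1 above and 7 below without WT replicate 1 (median -0.10). The Rieske iron-sulphur subunit Uqcrfs1 had the smallest p of the complex, at 131, 197 and 185 FPKM in WT and at 196, 224 and 215 FPKM in LKO. LKO replicate 1 lay just below WT replicate 2, the only overlap, and the difference was 0.33 ± 0.31 (SE, limma adjusted p = 0.823). Uqcrc2, a core protein without redox group (ENSMUSG00000030884, chromosome 7, 120635176 to 120659524, plus strand), was at 18.3, 61.4 and 44.5 FPKM in WT and at 24.1, 70.9 and 72.4 FPKM in LKO (0.43 ± 0.58 SE, limma adjusted p = 0.893). Its partner Uqcrc1 was at 29.5, 84.7 and 72.2 FPKM in WT and at 52.1, 94.5 and 79.2 FPKM in LKO. Both were lowest in the libraries numbered 1. Uqcrq, a small accessory subunit and the most abundant transcript of the complex, was at 282, 287 and 454 FPKM in WT and at 555, 296 and 159 FPKM in LKO (-0.16 ± 0.50 SE, limma adjusted p = 0.956). Its LKO values enclosed the WT range, with replicate 1 at the top, where Uqcrc2 had it at the bottom. Cyc1, cytochrome c1, which the name rule misses, was at 49.9, 134 and 99.8 FPKM in WT and at 56.9, 118 and 109 FPKM in LKO, low in the libraries numbered 1 as Uqcrc2 was.

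In complex IV 11 members were above 0 and 3 below, with a median of 0.09. With equal sums 6 were above and 8 below (median -0.02), after quantile normalization 7 and 7, and without both libraries numbered 1 only 2 were above and 12 below (median -0.24). Ndufa4l2, which is known as a hypoxia-induced relative of the oxidase subunit Ndufa4 (ENSMUSG00000040280, chromosome 10, 127514967 to 127517154, plus strand), had the smallest p of all members. It was at 3.27, 1.56 and 1.93 FPKM in WT (69, 30 and 33 reads) and at 0.575, 0.701 and 0.721 FPKM in LKO (8, 12 and 15 reads). All LKO values lay below all WT values, and the difference was -0.93 ± 0.24 (SE, 95% interval -1.49 to -0.37, limma unadjusted p = 0.00523, adjusted p = 0.294), so it was not called. Its adjusted p ran from 0.212 to 0.820 over the alternatives, and its difference was -1.56 with a pseudocount of 0.1 and -1.62 with voom. The last exons of Ndufa4l2 and of Shmt2, on the opposite strand, overlap; Shmt2 was at 70.6, 86.0 and 87.5 FPKM in WT and 66.5, 81.4 and 105.8 FPKM in LKO. The sources used here do not say whether counting used strand, so reads of the pair may have been shared. The abundant form, Ndufa4, was at 56.4, 194 and 168 FPKM in WT and at 90.6, 219 and 134 FPKM in LKO (limma adjusted p = 0.958).

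The nuclear subunits that surround the oxidase core included the widest spread of all members. Cox5a (ENSMUSG00000000088, chromosome 9, 57521274 to 57532426, plus strand), named for that spread, was at 7.33, 51.5 and 29.8 FPKM in WT and at 6.14, 53.6 and 41.6 FPKM in LKO. The highest of its 6 libraries was 8.72-fold above the lowest, while the genotype difference was 0.10 ± 0.92 (SE, limma adjusted p = 0.989). Cox5b, the zinc-binding subunit, was at 67.1, 83.5 and 129 FPKM in WT and at 187, 114 and 54.1 FPKM in LKO, so the libraries numbered 1 held the lowest values of each group for Cox5a but the highest LKO value for Cox5b. Cox6a1 was the most abundant transcript of all members, at 339, 607 and 751 FPKM in WT and at 757, 795 and 485 FPKM in LKO (0.31 ± 0.42 SE, limma adjusted p = 0.893). Cox7b was at 117, 138 and 175 FPKM in WT and at 128, 129.9 and 84.1 FPKM in LKO (-0.34 ± 0.33 SE, limma adjusted p = 0.827). Cox6b1, on the intermembrane face, was at 315, 267 and 434 FPKM in WT and at 561, 353 and 201 FPKM in LKO. Its LKO values again lay on both sides of WT.

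Isoforms known from other tissues were at or near 0. Among the forms of striated muscle, Cox6a2 had a mean of 0.0193 FPKM and Cox8b one of 0.310 FPKM, against 339 to 795 FPKM for Cox6a1 and 162 to 512 FPKM for Cox8a. Cox7a1, the muscle and brown fat counterpart of Cox7a2, was at 0.776, 1.28 and 1.32 FPKM in WT and at 2.94, 0.598 and 1.38 FPKM in LKO (5 to 20 reads), the lowest mean of any member (1.38 FPKM). Cox7a2 was at 66.6 to 147 FPKM. Cox4i2, a form of lung, had a mean of 0.0794 FPKM and Cox6b2, a form of testis, one of 0.254 FPKM. Cox8b was the gene nearest below the minimum of 0.5 FPKM, and Cox7a1 with Ndufa4l2 (1.46 FPKM) nearest above it. Cox7b2, Cox8c and a further Atp5o identifier were listed at 0 in all libraries. The supercomplex factor Cox7a2l was at 25.7, 58.7 and 43.6 FPKM in WT and at 15.3, 66.3 and 78.8 FPKM in LKO (limma adjusted p = 0.981). Of the 6 skeletal muscle markers Acta1, Ckm, Myh4 and Mb were at 0 in all 6 libraries, and Tnnt3 and Actn3 in 5 of 6. Of the 5 brown fat markers Dio2 was at 0 in all libraries, Ucp1 in 5 of 6 (at most 0.196 FPKM) and Cidea in 4 of 6 (at most 0.110 FPKM). The other two, Elovl3 (1.62 to 27.2 FPKM) and Ppargc1a (1.21 to 2.63 FPKM), which liver also expresses, were above 0 in every library, and the sum of the 5 ran from 12.2 to 28.4 FPKM in WT and from 4.25 to 12.4 FPKM in LKO.

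Complex V had 12 members above 0 and 5 below, with a median of 0.10. With equal sums 8 were above and 9 below, after quantile normalization 7 and 10, and without WT replicate 1 there were 3 above and 14 below (median -0.12). The catalytic beta subunit Atp5b (ENSMUSG00000025393, chromosome 10, 128083273 to 128090391, plus strand) had the largest positive difference of all members, at 46.4, 169 and 97.9 FPKM in WT and 64.1, 209 and 269 FPKM in LKO. LKO replicate 1 lay below 2 WT libraries, and the difference was 0.74 ± 0.66 (SE, 95% interval -0.81 to 2.29, limma adjusted p = 0.810). The alpha subunit Atp5a1, the most abundant transcript of the complex, was at 66.5, 291 and 164 FPKM in WT and at 91.2, 292 and 314 FPKM in LKO (0.46 ± 0.68 SE, limma adjusted p = 0.901). Both subunits of the catalytic head were thus lowest in the libraries numbered 1. Atp5k, subunit e of the membrane part, had the smallest p of the complex, at 37.4, 40.05 and 59.0 FPKM in WT and at 85.5, 69.2 and 53.4 FPKM in LKO. Only WT replicate 3 and LKO replicate 3 overlapped, and the difference was 0.60 ± 0.32 (SE, limma adjusted p = 0.644). Atp5j, of the peripheral stalk, was at 51.0, 58.9 and 69.1 FPKM in WT and at 61.3, 51.4 and 35.3 FPKM in LKO (limma adjusted p = 0.850). Atp5s was at 3.03, 2.34 and 2.89 FPKM in WT and at 1.58, 1.98 and 2.74 FPKM in LKO (limma adjusted p = 0.775). Another stalk subunit, Atp5h, was at 129, 127 and 139 FPKM in WT, close together, but at 209.7, 117 and 70.3 FPKM in LKO.

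The c ring, which turns as protons pass, is made from 1 mature protein encoded by Atp5g1, Atp5g2 and Atp5g3. By FPKM Atp5g3 was the most abundant in every library, at 36.4, 179 and 145 FPKM in WT and at 98.1, 222 and 138 FPKM in LKO. This order depends on the merged exon lengths, 2181 bases for Atp5g3 and 4912 bases for Atp5g1. In WT replicate 1, Atp5g1 had more reads than Atp5g3 (2469 against 1530). The order also leaves out Gm10039, a near-identical copy of Atp5g1 with a mean of 116 FPKM. Atp5g2 was at 28.6, 62.5 and 45.3 FPKM in WT and at 38.02, 65.4 and 58.1 FPKM in LKO. Atp5g1 was at 26.1, 46.8 and 50.5 FPKM in WT and at 36.4, 45.2 and 24.9 FPKM in LKO. Their differences were 0.55 ± 0.64, 0.27 ± 0.38 and -0.19 ± 0.37 (SE; limma adjusted p = 0.865, 0.893 and 0.929), and the groups overlapped in each.

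**Figure D5:**
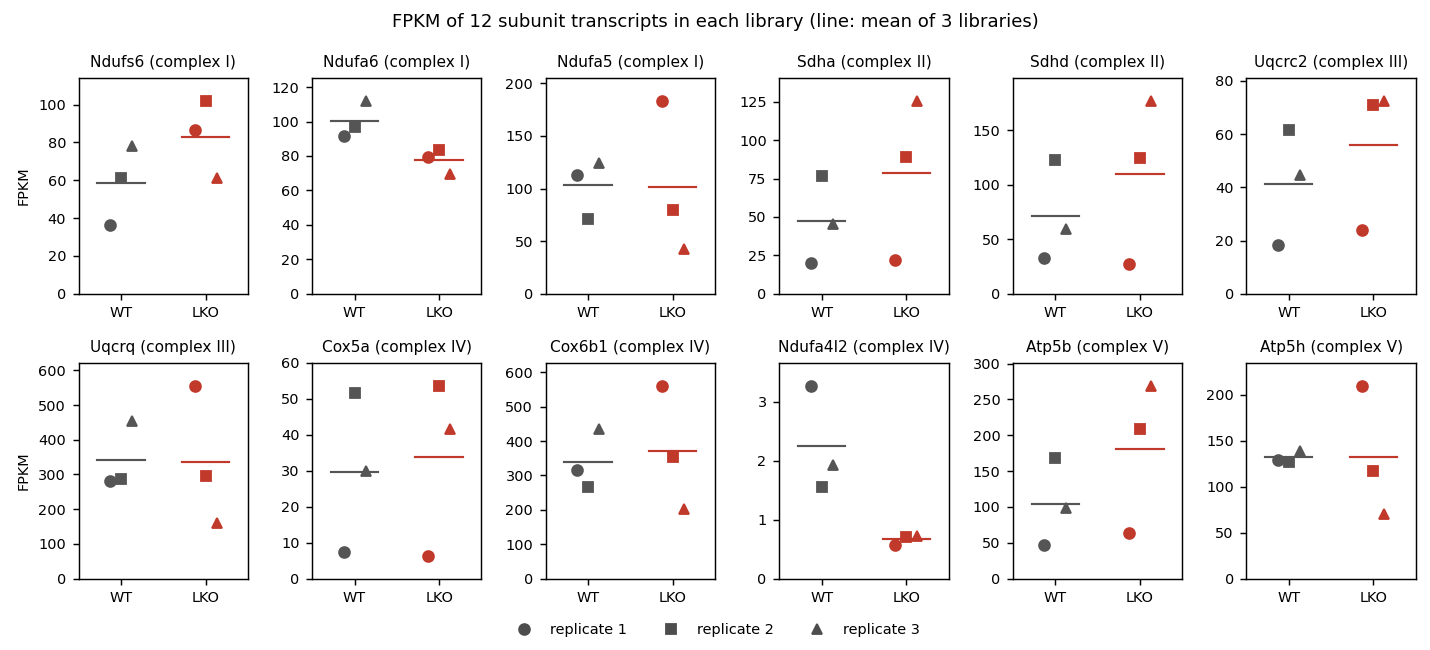
FPKM of 12 members in each library (circle, replicate 1; square, replicate 2; triangle, replicate 3; line, mean of 3 libraries). Ndufa6 and Ndufa4l2 are the 2 members whose groups do not overlap; in Sdha, Sdhd, Uqcrc2, Cox5a and Atp5b both circles are lowest, and in Ndufa5, Uqcrq, Cox6b1 and Atp5h the LKO circle is highest and the LKO triangle lowest.

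Some levels are uncertain because near-identical gene copies are annotated. Copies were counted where an alignment to the member's principal transcript had at least 95% identity and at least 80% of the length of its coding sequence. The alignment could lie anywhere in the transcript, also outside the coding sequence. Such copies were found for 21 members, and for 9 their summed level was at least 10% of the member's own. In 3 members the copies exceeded the gene: Atp5g1 (38.3 FPKM, against 116 for the processed pseudogene Gm10039), Ndufa12 (13.5 FPKM, against 40.9 for Gm15920) and Atp5l (11.7 FPKM, against 111 for Gm10221). Gm10039 was at 77.0, 173 and 143 FPKM in WT and at 116, 102 and 87.7 FPKM in LKO. Of the members named above for the order of their libraries, Atp5h (mean 132 FPKM) has the copy Gm10250 at 82.6 FPKM. Likewise Cox5b (mean 106 FPKM) has the copy Gm11273 at 42.7 FPKM. The sources used here do not say how reads matching both a gene and its copy were assigned. Exons of 25 members overlap those of another gene on the opposite strand. Merged exon models longer than the usual mRNA lower the FPKM of a gene, as for Ndufb2 (5628 bases) and Atp5l (6443 bases).

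Other genes of the pathway were taken from lists, and none of their members passed the threshold in the main run. Without LKO replicate 3, 1 gene of coenzyme Q synthesis passed, and without LKO replicate 2, 1 gene of the cytosolic ribosome. Genes said below to lie all above or all below WT were picked for a small p. Over all tested genes the groups did not overlap in 15.4%. Of 16 assembly factors of complex I, 8 were above 0 and 8 below (median 0.04); Ndufaf3 was at 6.09, 5.23 and 7.196 FPKM in WT and 1.56, 3.38 and 6.15 FPKM in LKO. Tmem186 was at 5.34, 4.27 and 3.96 FPKM in WT and at 3.69, 3.55 and 2.16 FPKM in LKO, all below WT (-0.43 ± 0.25 SE, limma adjusted p = 0.669). Of 29 tested assembly factors of complexes II to V, 15 were above 0 and 14 below (median 0.01). Sdhaf1, which serves iron-sulphur insertion into Sdhb, was at 2.40, 2.06 and 2.78 FPKM in WT and at 0.601, 1.34 and 0.719 FPKM in LKO, all below WT (-0.87 ± 0.22 SE, limma adjusted p = 0.294). Coa4, for complex IV, was at 2.72, 3.29 and 3.46 FPKM in WT and at 1.59, 2.12 and 1.202 FPKM in LKO, all below WT (limma adjusted p = 0.417). Of 19 genes for cytochrome c, electron transfer to ubiquinone and ATP synthase inhibition, 14 were above 0 (median 0.07). Atpif1, the inhibitor of ATP synthase, was at 2.41, 2.96 and 4.13 FPKM in WT and at 5.13, 6.93 and 5.19 FPKM in LKO, all above WT (0.71 ± 0.25 SE, limma adjusted p = 0.448). Hccs, which attaches haem to cytochrome c, was at 1.79, 1.24 and 1.57 FPKM in WT and at 2.40, 2.47 and 2.34 FPKM in LKO, also all above WT (0.43 ± 0.19 SE, limma adjusted p = 0.570).

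Among 13 genes of coenzyme Q synthesis (median -0.04), Coq8b was at 2.90, 3.002 and 1.95 FPKM in WT and at 16.8, 18.04 and 3.85 FPKM in LKO (1.72 ± 0.53 SE, limma adjusted p = 0.369). Coq10a, which binds coenzyme Q, was at 11.6, 10.8 and 9.28 FPKM in WT and at 5.996, 4.77 and 11.1 FPKM in LKO, where LKO replicate 3 lay within WT. Of 18 tested regulators of mitochondrial biogenesis 10 were above 0 (median 0.07). Esrra, which encodes the nuclear receptor ERR alpha, was at 25.5, 19.8 and 18.1 FPKM in WT and at 11.4, 7.58 and 13.4 FPKM in LKO, all below WT (-0.93 ± 0.30 SE, limma adjusted p = 0.389). Ppargc1a, its coactivator, was at 1.26, 1.28 and 1.21 FPKM in WT and at 1.80, 1.25 and 2.63 FPKM in LKO (limma adjusted p = 0.739). Polg, the mitochondrial DNA polymerase, was at 2.83, 2.04 and 1.87 FPKM in WT and at 4.89, 2.63 and 3.56 FPKM in LKO, with LKO replicate 2 below WT replicate 1. Of 18 genes of the citric acid cycle and pyruvate dehydrogenase, 14 were above 0 (median 0.33); the median was 0.20 after quantile normalization, and leaving out 1 library gave 0.04 (WT replicate 1), 0.13 (LKO replicate 3), 0.15 (LKO replicate 2) or 0.55 (LKO replicate 1). As in Sdha, their median centred level was lowest in the libraries numbered 1 (-0.58 in WT and -0.53 in LKO) and highest in LKO replicates 2 and 3 (0.39 and 0.43). Fh1, fumarase, was at 59.7, 83.5 and 80.3 FPKM in WT and at 129, 134 and 67.4 FPKM in LKO (limma adjusted p = 0.759). Dlst, of the oxoglutarate dehydrogenase complex, was at 9.88, 13.3 and 11.5 FPKM in WT and at 12.9, 13.5 and 17.8 FPKM in LKO, where 1 LKO library lay below WT replicate 2.

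The 77 tested proteins of the mitochondrial ribosome had a median of 0.04, with 42 above 0 and 35 below. Mrpl19 was at 0.999, 1.53 and 0.893 FPKM in WT and at 1.86, 2.38 and 1.46 FPKM in LKO, and Mrpl22 at 16.5, 19.8 and 22.6 FPKM in WT and 14.3, 14.5 and 12.2 FPKM in LKO. In Mrpl22 all LKO values lay below WT, in Mrpl19 1 of 3 LKO values lay within the WT range, and neither passed (limma adjusted p = 0.624 and 0.613). The 77 of the cytosolic ribosome had a median of 0.08, with 48 above 0 and 29 below. Rps21 was at 19.02, 36.9 and 33.4 FPKM in WT and at 53.4, 77.1 and 57.3 FPKM in LKO, all above WT (1.08 ± 0.34 SE, limma adjusted p = 0.390). Rpl29 was at 0.783, 0.252 and 0.398 FPKM in WT and at 45.3, 0.568 and 46.7 FPKM in LKO, so LKO replicate 2 lay within WT while the other two stood far above it (limma adjusted p = 0.455). With equal sums the medians of these lists of nuclear genes, that of the citric acid cycle aside, were between -0.13 and -0.01.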

How the data were processed

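The authors deposited 1 table of FPKM per library. Per the submitters' processing notes, the tools were featureCounts 1.5.0-p3, HISAT2 2.0.5, CASAVA and DESeq2 1.20.0, and the build was mm10; the sources used here give no annotation, strand setting or filter. FPKM times the merged exon length in GENCODE vM21, which held 54495 of 54532 identifiers, gave whole reads within 0.05 for 96.1% to 96.4% of values, and so the depth. limma-trend (limma 3.58.1, R 4.3.3) with robust empirical Bayes was fitted to log2(FPKM + 1) of genes averaging at least 0.5 FPKM. Genotype was the only term, with Benjamini-Hochberg adjustment at 0.05. The fit was also run on simulated libraries, with counts drawn for each gene on its own. Apart from depth these lacked the library differences described above, so that run cannot show how the fit handles them.

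Members and lists were chosen with earlier results of these data known. Named were, per complex, the 4 members of smallest p and the most abundant one, isoform families, members nearest the minimum level, and 2 genes per other list; 1 gene is not reported here; Ndufa6, Ndufa5, Cox5a, Cox5b, Cox6b1, Atp5h, Ndufa11, Cyc1, Gm10039, Esrra's coactivator and members named only in passing were added after their values were seen. Alternatives were another pseudocount, other minimum levels, a replicate block, left-out libraries, other scalings, voom and protein-coding genes alone. Copies were found with BLAST 2.17.0. Figures used Python 3.11.15, pandas 2.3.3 and matplotlib 3.10.9.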

Additional observations from a re-analysis of the deposited data

Results flagged for a closer look

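Genes that carry the families' names but are not annotated as protein-coding, and so stood outside the comparison, also gave signal. The mean over the 6 libraries was 24.57 FPKM for Ndufb1-ps, annotated as a long non-coding RNA from a bidirectional promoter, 6.693 FPKM for the processed pseudogene Ndufb4c and 1.562 FPKM for the processed pseudogene Ndufs6b. Ndufb1-ps was at 19.5, 17.5 and 35.1 FPKM in WT (replicates 1, 2 and 3) and at 38.3, 22.7 and 14.4 FPKM in LKO, with LKO replicate 1 highest and LKO replicate 3 lowest as in many short subunits of complex I. Ndufb4c was at 9.71, 2.48 and 8.37 FPKM in WT and at 10.1, 4.92 and 4.59 FPKM in LKO.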

How the results depend on the processing

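In each alternative run 0 of the 78 members passed the threshold (limma); at an unadjusted p under 0.05 the counts were 0 higher and 1 lower, except without LKO replicate 1 (3 higher and 2 lower, where 15.1% of all genes had such a p). Over all genes 5 were called, and 1 without a minimum level, 2 without both libraries numbered 1, 3 after quantile normalization, 8 among protein-coding genes alone, and between 0 (without WT replicate 3) and 17 (without LKO replicate 3) with 1 library left out. With the replicate block 0 genes were called; the cause was not tested. Deviations from the group means correlated at 0.49, 0.30 and -0.02 between same-numbered samples 1 to 3. WT replicate 2 correlated more with LKO replicate 3 (0.45) than with LKO replicate 2. The labels give no pairing, and whether same-numbered samples share more than a number was not tested. Members whose groups do not overlap numbered 2 (15.4% of all tested genes), but 9 with equal sums of nuclear protein-coding FPKM (13.5%), 8 after quantile normalization (15.6%), 27 without both libraries numbered 1 (46.9%) and between 4 (without WT replicate 3, 19.9%) and 19 (without LKO replicate 1, 38.4%) with 1 library left out, where smaller groups overlap less by construction. The sign of up to 32 members' differences turned (without WT replicate 1), none called. The members' summed level and median moved by less than 1 SD between replicates, but that SD is wide and the direction turned. The median ran from -0.23 (without both libraries numbered 1) to 0.21 (without WT replicate 3). The summed level in LKO relative to WT was 1.088 in the main run, and 0.9135 and 1.216 in those same runs. Precision is limited by the spread of 3 libraries a group and, for Ndufa4l2 and Cox7a1, by few reads.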
